A study of Mus musculus with 2 samples.

Results

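The adrenergic receptors, adenylyl cyclases and cyclic nucleotide phosphodiesterases of the heart are described here by 10 genes, together with the anchor and the kinase that act beside them. The members were chosen by name, as the rows for Adrb1, Adra1a, Adra1b, Adcy5, Adcy6, Pde3a, Pde4b, Pde4d, Akap6 and Prkca, among 25235 genes listed in at least 1 of 2 libraries. All 10 members were listed in both libraries and all lie on autosomes.

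The libraries came from nuclei of 1 adult heart (9 weeks) and 1 aged heart (78 weeks) of female F1 mice with a C57BL/6J (BL6) mother and a CAST/EiJ (CAST) father. In the labels, the genotype field of both hearts gives the plain hybrid, whereas the breed field gives a cross with a ∆Xist mother, and the study describes these hearts as wild type. Frozen hearts were reduced to nuclei, DNA-stained nuclei were sorted, and the authors pooled the nuclei of all cell types with an active BL6 X chromosome into 1 pseudobulk per age. The values are reads that cover a position differing between the strains (SNP-overlapping reads), counted per gene and per allele. Either age has 1 library, so no value has a replicate, no test between ages was made, and every interval below is a 95% interval of counting error only.

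SNP-overlapping reads numbered 9747535 at 9 weeks and 5805807 at 78 weeks, a depth ratio of 1.68. Levels are given as RPM, the reads of a gene per 1000000 SNP-overlapping reads of its library, and every ratio of the aged to the adult library, also of a single allele, is one of RPM. Of 12736 genes with at least 20 reads in both libraries, 3571 were higher by 1.5-fold or more in the aged library (28.0%) and 1500 were lower (11.8%). With the median ratio of genes with 100 reads or more set to 1, which shifts every ratio by -0.21 on the log2 scale, 2370 were higher and 2284 lower. The median ratio of aged to adult RPM over all 12736 genes was 1.17. The summed RPM of 10 cardiomyocyte markers was 28974 at 9 weeks and 27378 at 78 weeks (ratio 0.945, or 1.20 without Ttn), and the summed markers of the other cell types were higher in the aged library, by 1.56-fold for endothelial cells, 1.58-fold for macrophages, 1.59-fold for fibroblasts, 1.81-fold for pericytes and 2.92-fold for smooth muscle. Past the 1.5-fold limit lay 3 of 10 cardiomyocyte markers (Myl2 and Actc1 higher, Ttn lower), and higher were 4 of 8 endothelial, 3 of 6 macrophage, 5 of 7 fibroblast (1 lower), 3 of 4 pericyte and 4 of 4 smooth muscle markers with enough reads. Among all nuclei of these hearts, the study reports a smaller share of cardiomyocytes and a larger share of fibroblasts in the aged heart. Those shares also cover nuclei without an active BL6 X chromosome, which the values here leave out. The part of these cell types in the values of the members was not tested. Every cell type of the heart is pooled in these values, so fewer nuclei of a type and less RNA per nucleus cannot be told apart.

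Noradrenaline and adrenaline act on cardiac cells through receptors coupled to G proteins. The β1 receptor stimulates adenylyl cyclases, which make cyclic AMP, and cyclic AMP activates protein kinase A (PKA), which phosphorylates the channels and pumps of calcium handling and so strengthens and speeds the beat. Phosphodiesterases break cyclic AMP down again and confine it to small regions around anchoring proteins. The α1 receptors act instead through phospholipase C and protein kinase C.

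Promoter sequence was available from RefSeq (GRCm38.p6) for 7 of 10 members, in 11 windows of 250 bases directly upstream of an annotated start. The windows were searched on both strands for the short form of the cyclic AMP response element (TGACG or its reverse complement CGTCA), for the full element (TGACGTCA, which contains both short forms) and for the GC box (GGGCGG or its reverse complement CCGCCC). Among 32851 windows of the same length, 17.8% held the short form, 1.55% the full element and 32.7% the GC box. The short form was found in 2 of 11 member windows, at Adrb1 and at 1 of 4 Pde4b windows, and the full element in 0. These 2 windows and that of Adcy5, the member with the largest ratio among those with at least 20 reads in both libraries, are shown 5′ to 3′ on the strand of the gene, with the searched motifs in capitals. The windows are chr19:56721867-56722116 (plus strand) for Adrb1, chr4:102421305-102421554 (plus strand) for Pde4b and chr16:35154614-35154863 (plus strand) for Adcy5.
Adrb1: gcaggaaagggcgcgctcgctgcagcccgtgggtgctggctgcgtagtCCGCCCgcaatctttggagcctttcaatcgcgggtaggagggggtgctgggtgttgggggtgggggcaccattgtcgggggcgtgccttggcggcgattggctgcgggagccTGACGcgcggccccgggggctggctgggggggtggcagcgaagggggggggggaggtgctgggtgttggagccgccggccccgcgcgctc
Pde4b: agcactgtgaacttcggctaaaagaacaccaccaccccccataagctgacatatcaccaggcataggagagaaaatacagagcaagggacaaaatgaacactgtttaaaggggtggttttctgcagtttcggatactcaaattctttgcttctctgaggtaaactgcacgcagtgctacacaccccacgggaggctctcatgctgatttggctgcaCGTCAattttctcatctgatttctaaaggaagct
Adcy5: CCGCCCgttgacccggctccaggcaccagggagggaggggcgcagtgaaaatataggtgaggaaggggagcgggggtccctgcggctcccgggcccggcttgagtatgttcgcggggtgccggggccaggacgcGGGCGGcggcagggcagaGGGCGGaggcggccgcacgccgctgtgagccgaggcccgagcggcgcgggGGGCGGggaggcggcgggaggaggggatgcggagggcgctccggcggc
The short form began 90 bases upstream of the start in Adrb1 and 34 bases upstream in Pde4b, and the Adrb1 window also held 1 GC box. The Adcy5 window held 4 GC boxes and no short form. At least 1 GC box was found in 4 of 11 member windows, those of Adcy5, Adrb1 and Prkca and 1 of Adra1b, against 32.7% of all windows. The counts do not resolve which of several starts a gene used, and a match is given as a description of the letters.

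Among 9 members with at least 20 reads in both libraries, 4 were lower by 1.5-fold or more in the aged library (Adra1a, Pde4b, Pde4d and Akap6; 11.8% of all genes) and 1 was higher (Adcy5; 28.0% of all genes). Both alleles were lower by 1.5-fold or more in 4 of 9 members, against 7.14% of 9157 genes (at least 20 reads of each allele at both ages). Both were higher in 1 of 9, against 17.2%. These are the same 5 members, called on the summed alleles, so the allele counts are no separate support for the calls. The median ratio of the 9 members was 0.670. Counting intervals of the ratio lay wholly below 1 for 6 members and wholly above 1 for 2, and the interval of Adcy6 held 1. The 10 members together gave 13130 RPM at 9 weeks and 8015 RPM at 78 weeks, a ratio of 0.610 (0.604–0.617), and Pde4d held more of these reads than any other member in both libraries.

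**Figure D1:**
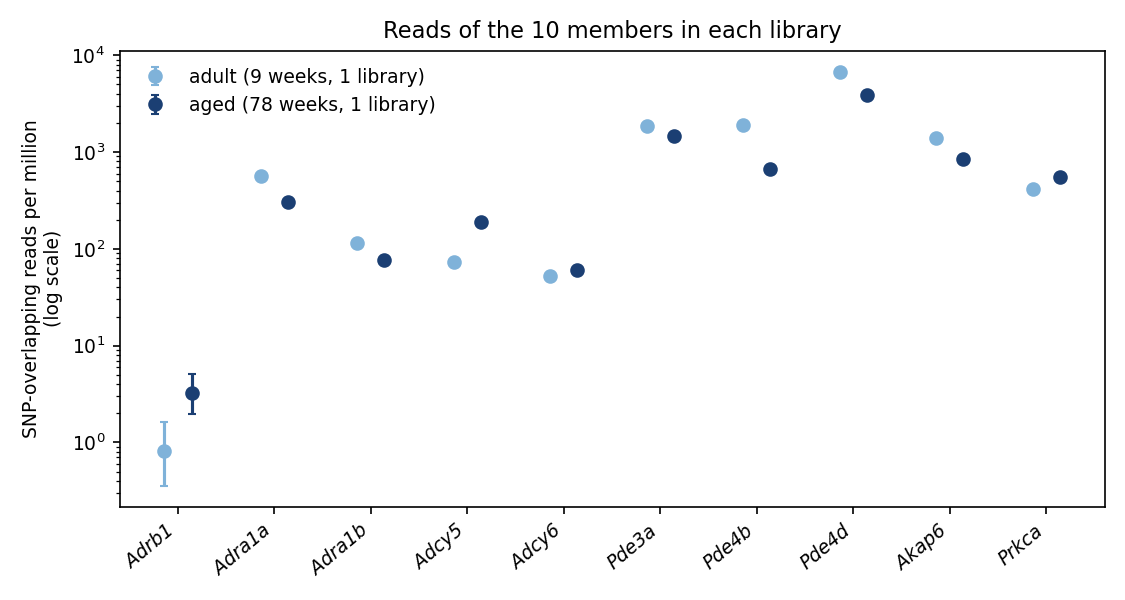
RPM (log scale) of each member in the adult and the aged library, 1 library each, with exact Poisson 95% intervals that are narrower than the point for the deeper genes. Pde4d sits highest, at 6741 and 3846 RPM, and Adrb1 lowest, at 0.821 and 3.27 RPM.

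Per length of the locus, the order of the levels differed between the libraries. In the adult library, Pde3a led with 7.19 RPM per kb, followed by Pde4d with 5.18, Adra1a with 4.18, Pde4b with 3.69, Akap6 with 3.05, Adcy6 with 2.61, Prkca with 1.02, Adra1b with 0.909, Adcy5 with 0.493 and Adrb1 with 0.329 RPM per kb. Only the intervals of the neighbours Adcy5 and Adrb1 overlapped in that order. In the aged library, Pde3a still led with 5.63 RPM per kb, Adcy6 (2.96) and Pde4d (2.95) came next with overlapping intervals, and Pde4b was at 1.30 RPM per kb, where its interval overlapped those of Adrb1 (1.31), Prkca (1.36) and Adcy5 (1.27). Adra1b was lowest in the aged library, at 0.609 RPM per kb. How the reads of these libraries scale with the length of a locus was not tested. How many strain differences each locus carries was not known either, so the order is a description and not a ranking of expression.

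The β1 receptor was at the edge of detection. Adrb1 (chr19:56722372-56724862, plus strand), the principal β receptor of the cardiomyocyte, has a short counted locus of 2.49 kb that is exonic throughout. In GENCODE M21 the gene runs on to 56733113, and reads past the end of the counted locus are not in its count. Within the counted locus, Adrb1 had 8 reads at 9 weeks and 19 at 78 weeks, or 0.821 RPM (0.354–1.62) and 3.27 RPM (1.97–5.11). The ratio was 3.99 (1.67–10.5), and both counts were below the minimum of 20, so the gene was left out of the counts of members. BL6 and CAST reads were 4 and 4 at 9 weeks and 10 and 9 at 78 weeks.

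Both α1 receptors among the members had lower levels in the aged heart. Adra1a (chr14:66635013-66771240, plus strand, 136 kb), a receptor coupled to Gq, had 5550 reads at 9 weeks and 1773 at 78 weeks, or 569 RPM (554–585) and 305 RPM (291–320). Its level was 1.86-fold lower in the aged library, a ratio of 0.536 (0.508–0.566) at percentile 6.20 of all genes. Adra1b (chr11:43774605-43901245, minus strand, 127 kb), which couples to the same G proteins, had 1122 and 448 reads, or 115 RPM (108–122) and 77.2 RPM (70.2–84.7). Its ratio of 0.670 (0.599–0.749) lay just short of the 1.5-fold limit, and it passed the limit when ratios were taken relative to the median of all genes. On that relative scale 5 of 9 members were lower, against 18.4% of all genes, and 1 was higher, against 18.0%. Adra1a gave 495 reads per 100 Adra1b reads at 9 weeks (464–528) and 396 at 78 weeks (357–440), so the intervals did not overlap.

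The 2 cyclases among the members differed from each other. Adcy5 (chr16:35155636-35304549, plus strand, 149 kb) and Adcy6 (chr15:98589978-98610140, minus strand, 20.2 kb) encode calcium-inhibited adenylyl cyclases of the cardiomyocyte. Adcy5 had 715 reads at 9 weeks and 1100 at 78 weeks, or 73.4 RPM (68.1–78.9) and 189 RPM (178–201). The ratio was 2.58 (2.35–2.84), at percentile 95.6 of all genes, and was 2.44 for BL6 and 2.80 for CAST reads. A further locus of the annotation, LOC108168285, lies inside Adcy5, and its reads equalled 1.40% of the Adcy5 reads at 9 weeks and 2.55% at 78 weeks. Adcy6 had 512 and 347 reads, or 52.5 RPM (48.1–57.3) and 59.8 RPM (53.6–66.4). Its ratio of 1.14 (0.990–1.31) was not distinguishable from 1 at this depth, and its direction flipped with the scale, between 0.986 and 1.20. There were 140 Adcy5 reads per 100 Adcy6 reads at 9 weeks (124–157) and 317 at 78 weeks (281–359).

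The phosphodiesterases made up most of the reads of the members and all 3 were lower in the aged library, from 10510 to 5971 RPM in sum. The extent differed strongly between them. Pde4b (chr4:102087528-102607262, plus strand, 520 kb), a cyclic AMP-specific phosphodiesterase, had 18703 reads at 9 weeks and 3915 at 78 weeks, or 1919 and 674 RPM. Its level was 2.85-fold lower, a ratio of 0.351 (0.339–0.364) at percentile 1.66 of all genes, with a ratio of 0.337 for BL6 and 0.368 for CAST reads. Pde4d (chr13:108654177-109955969, plus strand, 1302 kb), its close relative with the same substrate, had 65706 and 22329 reads, or 6741 and 3846 RPM. In GENCODE M21 the gene begins upstream of the counted locus, at 108449948, and reads of that part are not in its count. The Pde4d ratio was 0.571 (0.562–0.579), at percentile 7.29. Pde3a (chr6:141249269-141506862, plus strand, 258 kb), the phosphodiesterase whose cyclic AMP hydrolysis is inhibited by cyclic GMP, had 18042 and 8420 reads, or 1851 and 1450 RPM. Its ratio of 0.784 (0.763–0.804) was below 1 but within the 1.5-fold limits.

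Reads of Pde4b and Pde3a were near equal in number in the adult library and far apart in the aged one. Per length of the locus they were not equal in the adult library, with 3.69 RPM per kb for Pde4b and 7.19 for Pde3a. The values below therefore describe a change in the proportion of reads. There were 104 Pde4b reads per 100 Pde3a reads at 9 weeks (102–106) and 46.5 at 78 weeks (44.8–48.3). Against Pde4d, Pde4b gave 28.5 reads per 100 at 9 weeks (28.0–28.9) and 17.5 at 78 weeks (16.9–18.1). These proportions do not depend on the scale of the libraries.

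The anchor and the kinase lay on opposite sides of 1. Akap6 (chr12:52699013-53155568, plus strand, 457 kb), which encodes mAKAP, a scaffold at the nuclear envelope of cardiomyocytes that holds PKA and a Pde4d product, had 13561 and 4952 reads, or 1391 and 853 RPM. Its ratio was 0.613 (0.593–0.633), at percentile 9.20. Prkca (chr11:107933387-108343888, minus strand, 411 kb), the conventional protein kinase Cα downstream of the α1 receptors, had 4070 and 3230 reads, or 418 and 556 RPM. Its ratio was 1.33 (1.27–1.40), at percentile 62.1, near the middle of all genes.

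**Figure D2:**
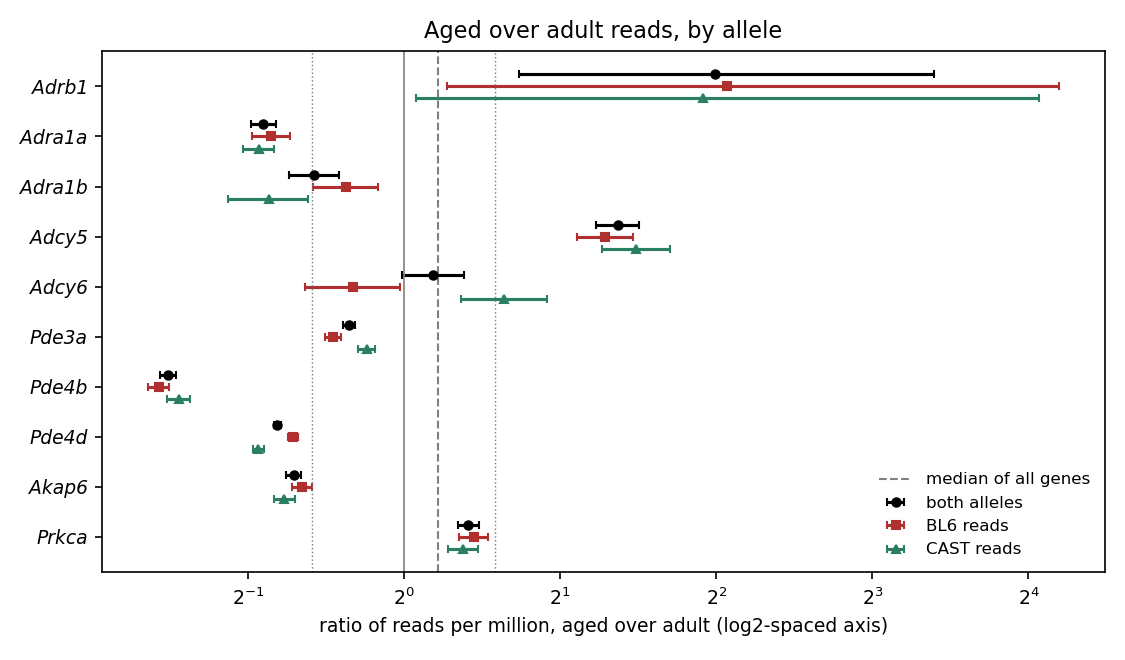
Ratio of aged to adult RPM (log2-spaced axis) of each member for both alleles together and for BL6 and CAST reads, with exact 95% counting intervals. Dotted lines mark the 1.5-fold limits, the solid line 1 and the dashed line the median of all genes (1.17). Pde4b is farthest to the left with all its points near 0.35, and the BL6 and CAST points of Adcy6 fall on opposite sides of 1. Adcy5 lies beyond the upper limit. Adrb1 is drawn farther right at 3.99, on 8 and 19 reads, below the minimum for a call.

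The length of a locus moved with the ratio over all genes. The median ratio was 1.38 for 2313 loci under 10 kb, 1.16 for 8270 loci of 10 to 100 kb, 1.02 for 1500 loci of 100 to 250 kb and 0.937 for 653 loci of 250 kb or more. Genes with many reads also had a lower median. It was 1.00 for the 1973 genes of any length with 1000 or more reads in the adult library, against 1.17 over all genes. Adra1a, Adra1b, Akap6, Pde3a, Pde4b, Pde4d and Prkca were among these deeper genes. Of 9 members, 8 were loci of 100 kb or more, a class in which 20.3% of 2153 genes were lower by 1.5-fold or more and 19.0% higher. Among these long loci Pde4b was at percentile 3.34, Adra1a at 12.0, Pde4d at 14.1, Akap6 at 17.2, Adra1b at 20.7, Pde3a at 29.2, Prkca at 74.1 and Adcy5 at 97.1. The lower values of Pde4d, Akap6 and Adra1b were therefore shared with a larger part of the long loci than those of Pde4b. The parts of locus length and of read depth in the values of the members were not tested.

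**Figure D3:**
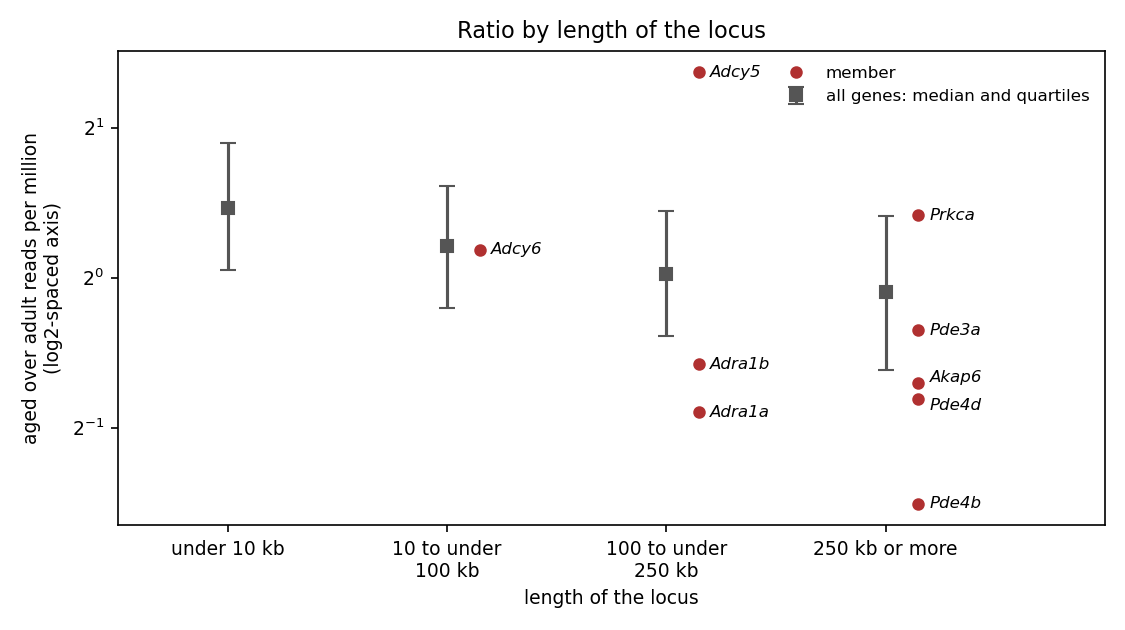
Ratio of aged to adult RPM (log2-spaced axis) by length of the locus. Grey squares and bars give the median and quartiles of all genes in the class and red points the 9 members with at least 20 reads in both libraries. The class medians step down from 1.38 to 0.937, and 7 of the 9 members lie outside the quartiles of their classes (all but Adcy6 and Pde3a).

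The allelic ratio is the BL6 share of the reads, and its median over autosomal genes was 0.536 at 9 weeks (14037 genes) and 0.537 at 78 weeks (12770 genes). Most members lay near this median. Pde4b had an allelic ratio of 0.542 and 0.519, Pde4d of 0.528 and 0.566, Pde3a of 0.555 and 0.518, Akap6 of 0.517 and 0.536 and Prkca of 0.512 and 0.524 at 9 and 78 weeks, respectively. Adcy5 was above the median in both libraries, with 0.610 (0.573–0.646) and 0.576 (0.547–0.606). An allelic ratio of 0.6 or more was found in 1 of 9 members at 9 weeks (Adcy5; 26.3% of autosomal genes) and 1 at 78 weeks (Adra1b; 28.9%). An allelic ratio of 0.4 or less was found in 1 member at 9 weeks (Adra1a; 10.7%) and 2 at 78 weeks (Adra1a and Adcy6; 12.5%).

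Adra1a was the member with an excess of CAST reads at both ages. Its BL6 and CAST reads were 219 and 351 RPM at 9 weeks and 121 and 184 RPM at 78 weeks. The allelic ratio was 0.384 (0.371–0.397) at 9 weeks and 0.397 (0.374–0.420) at 78 weeks, and 5.21% of 12390 autosomal genes had an allelic ratio of 0.4 or lower in both. The reads of both alleles were lower in the aged heart by similar factors, with a ratio of 0.555 (0.509–0.605) for BL6 and 0.525 (0.489–0.562) for CAST.

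Adcy6 was the member whose alleles diverged. In GENCODE M21 a gene on the opposite strand, Gm29331, overlaps Adcy6, and whether its reads were counted with Adcy6 is not known. BL6 reads were 29.1 RPM at 9 weeks and 23.3 RPM at 78 weeks, a ratio of 0.798 (0.645–0.983), whereas CAST reads were 23.4 and 36.5 RPM, a ratio of 1.56 (1.29–1.89). The allelic ratio was accordingly 0.555 (0.510–0.598) at 9 weeks and 0.389 (0.337–0.443) at 78 weeks, a change (adult minus aged) of 0.166 (0.0978–0.231). A change of 0.1 or more was found in 1 of 9 members and in 28.1% of all autosomal genes, and among the 5893 genes with 100 to under 1000 reads in the shallower library, as Adcy6 had, in 17.0%. An allele higher and the other lower, each beyond its counting interval, was found in 1.89% of 9157 genes. Adra1b had the opposite shift, with an allelic ratio of 0.539 (0.510–0.569) at 9 weeks and 0.623 (0.576–0.668) at 78 weeks, a change of -0.0836 (-0.136 to -0.0294). Its ratio of aged to adult RPM was 0.549 for CAST and 0.774 for BL6.

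Intervals of the allelic ratio of the adult and the aged library did not overlap for 4 of 9 members (Adra1b, Adcy6, Pde3a and Pde4d), against 11.8% of all autosomal genes. This count depends on depth, and among genes with 1000 or more reads in the shallower library the share was 31.7%, against 2 of 6 members. A change of 0.1 or more was found in 0 of those 6 members and in 3.32% of genes of that depth. The change was 0.0368 (0.0239–0.0497) for Pde3a and -0.0381 (-0.0456 to -0.0306) for Pde4d.

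**Figure D4:**
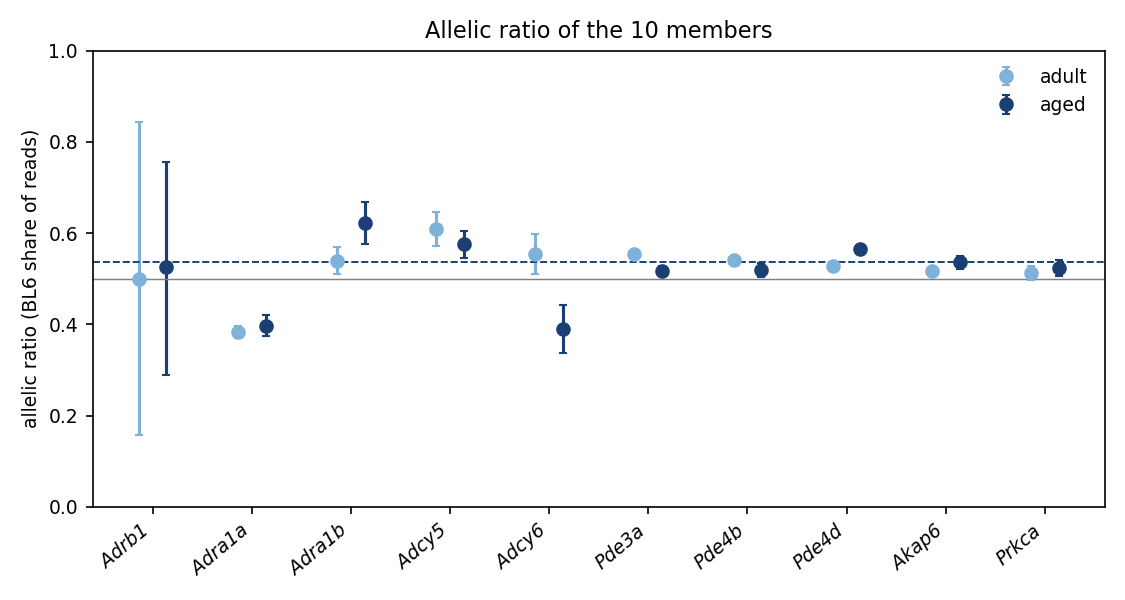
Allelic ratio (BL6 share of SNP-overlapping reads, axis from 0 to 1) of each member in the adult and aged library with exact Clopper-Pearson 95% intervals. The solid line marks 0.5 and the dashed lines the autosomal medians (0.536 and 0.537). Adra1a lies below 0.5 in both libraries, Adcy6 is at 0.555 at 9 weeks and 0.389 at 78 weeks, and the intervals of Adrb1 span much of the axis.

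Of 88 other genes of the adrenergic and cyclic AMP pathway, 85 were listed, and 73 of them reached 20 reads at both ages. Of these, 23 were higher by 1.5-fold or more in the aged library and 7 were lower, with a median ratio of 1.15 against 1.17 over all genes. These are 31.5% higher and 9.59% lower, near the shares over all genes (28.0% higher, 11.8% lower and 60.2% within the limits), which are also the background of each list that follows. Chrm2, the muscarinic receptor that opposes the β receptors through Gi, had 1574 RPM at 9 weeks and 686 RPM at 78 weeks (ratio 0.436, 0.421–0.451). Pde1c, a phosphodiesterase stimulated by calcium and calmodulin, had 1453 and 421 RPM (0.289, 0.277–0.302). Rapgef4, the cyclic AMP-activated exchange factor Epac2, had 318 and 73.7 RPM (0.232, 0.209–0.256). Akap7 (ratio 0.517), the cyclic AMP phosphodiesterase gene Pde7a (0.610) and the PKA regulatory subunit gene Prkar2b (0.627) were lower as well, and Popdc2, outside the rule for named genes and added after its value was seen, had 69 and 26 reads (0.633, 0.387–1.01).

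**Figure D5:**
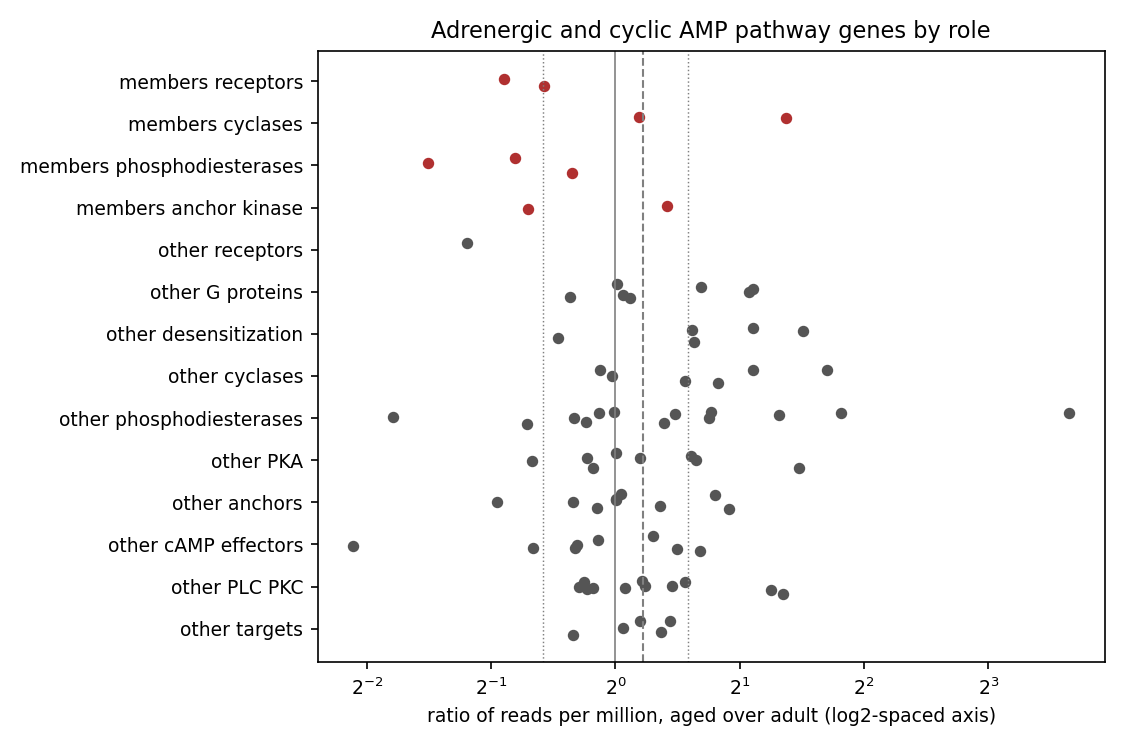
Ratio of aged to adult RPM (log2-spaced axis) of the members (red) and the other pathway genes (grey) by role, for genes with at least 20 reads in both libraries. Points are spread vertically within a row for visibility, and lines mark 1 (solid), the 1.5-fold limits (dotted) and the median of all genes (dashed, 1.17). Pde10a is the point farthest to the right at 12.6 and Rapgef4 the point farthest to the left at 0.232.

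Other phosphodiesterases were divided, with 5 of 13 higher and 2 lower. The list includes Pde4dip (0.794), which encodes a Pde4d-binding protein and not an enzyme. Pde10a, an enzyme for cyclic AMP and cyclic GMP, had 478 reads at 9 weeks and 3574 at 78 weeks, or 49.0 and 616 RPM, a ratio of 12.6 (11.4–13.8). The high-affinity cyclic AMP phosphodiesterases Pde8a (2.49) and Pde8b (3.52) were higher, as were Pde1a (1.70) and Pde4a (1.69), the latter a relative of Pde4b and Pde4d. Pde3b, the relative of Pde3a, had 123 and 122 RPM (0.989, 0.900–1.09), and Pde4c had 4 and 9 reads.

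Among the other cyclases, 3 of 6 were higher, namely Adcy3 (1.77), Adcy4 (2.15) and Adcy7 (3.26, 14.3 and 46.5 RPM), and 0 were lower. Adcy9, the one with most reads, had 331 and 324 RPM (0.981, 0.926–1.04), more than Adcy5 or Adcy6 in either library. Adcy2 had a ratio of 1.47 and Adcy8 of 0.918, and Adcy1 had 39 and 11 reads. The other adrenergic receptors given here were hardly detected. Adra1d had 12 reads at 9 weeks and 7 at 78 weeks, Adra2a 1 and 2, and Adrb3 had 19 at 9 weeks and was not listed at 78 weeks. Adra2b and Adra2c were listed in neither library.

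Of the G proteins, 3 of 7 were higher (Gnai2 2.15, Gnai3 1.61 and Gna11 2.11), and Gnas, the α subunit that couples β receptors to the cyclases, had a ratio of 1.04 (0.843–1.29). Of the genes of receptor desensitization, 4 of 5 were higher, against 28.0% of all genes, in a list too short to read more from. Grk5, a kinase that phosphorylates active receptors, had 247 and 383 RPM (1.55, 1.46–1.64), Grk6 had a ratio of 2.85 and Arrb1, an arrestin, of 1.53. Arrb2, with 25 and 32 reads and a ratio of 2.15 (1.23–3.78), was outside the rule and added after its value was seen. The receptor kinase genes Grk6 and Grk3 (listed as Adrbk2) had unequal alleles in both libraries, with an allelic ratio of 0.193 and 0.196 for Grk6 and of 0.807 and 0.785 for Grk3, whose RPM ratio was 0.728. Grk2 (listed as Adrbk1) had 38 and 18 reads.

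Of the PKA genes, 3 of 8 were higher, the catalytic subunit gene Prkaca (1.53) and the regulatory subunit genes Prkar2a (1.57) and Prkar1b (2.79), and 1 was lower. Among the other anchors, Akap2 (1.75) and Akap12 (1.89) were higher, and Akap13, the most abundant in the adult library, had 673 and 677 RPM (1.01). The exchange factor Rapgef3 (Epac1) was higher (1.60). Of the genes of phospholipase C and protein kinase C, 2 of 11 were higher, Prkcd (2.54) and Prkcz (2.38), and 0 were lower. Targets of PKA in calcium handling and the sarcomere were within the 1.5-fold limits in 5 of 5 cases, as were 60.2% of all genes, including Ryr2 (1.15), Cacna1c (0.789) and Pln (1.04).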

How the data were processed

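Nuclei of 1 adult and 1 aged female heart were measured by snRNA-seq. Alignment by the authors used Cell Ranger 7.1.0, after which they pooled nuclei with an active BL6 X chromosome and counted with Allelome.PRO2 on GRCm38 (mm10) with a RefSeq annotation. The deposited counts are BL6, CAST and total SNP-overlapping reads per gene, without normalization. The deposited allelic ratio is a fraction rounded by the authors and was recomputed here from the reads. The deposited allelic score was not used. Collapse of duplicate reads and the use of strand in this counting are not given in the sources used here, so intervals treat reads as independent and nested loci may share reads. In GENCODE M21, genes on the opposite strand overlap Adcy5, Adcy6, Pde3a, Akap6 and Prkca, and the counts of these members may hold reads of such genes. The study removed doublets from its expression matrices with DoubletFinder. Whether the pooled counts hold only nuclei kept by that step is not given in the sources used here, and doublets cannot be removed from pooled counts. The ages are those of the labels. They differ from the weeks written in the file name of the aged heart.

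Reads were scaled to the total of all listed genes (RPM). Intervals (95%) are exact Poisson for counts, exact conditional for ratios, Clopper-Pearson for the allelic ratio and Newcombe for its change (Python 3.11.15, scipy 1.17.1). The interval functions were run on simulated reads drawn independently, as the intervals assume. That run checks the code and does not cover duplicate reads or variation between hearts. Calls required 20 reads in both libraries and a 1.5-fold difference. Limits of the allelic ratio were 0.6 and 0.4, with a change of 0.1. Other pathway genes were named where they passed the fold with at least 100 reads in the 2 libraries together, or had an allelic ratio of at most 0.3 or at least 0.7 in both libraries. Paralogs of the members and loci that overlap a member were named too, except for a gene that is not reported here. Genes within the limits that are named as examples fall outside this rule. The members, lists and limits were chosen with earlier results of these data known. Alternatives were other scales, read minimums, folds and allelic ratio limits, and leaving out overlapping loci. The scale on loci of 100 kb or more, the length classes and the call on both alleles were added after seeing the data. Coordinates are those of the deposited values, counted from 1, and strands are those of GENCODE M21.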

Additional observations from a re-analysis of the deposited data

How the results depend on the processing

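No paired analysis was possible because either age has 1 library, and leaving out a replicate was not possible for the same reason. Of the summary counts, 82 values stayed within 1.5 times the main one or did not move, and 44 moved. For the values of single members the criterion was the counting interval of the main value, and 100 stayed within it and 30 fell outside it. A small shift could therefore count as moved in a deep gene. The Pde4d ratio did so, from 0.571 to 0.559 without the 20 genes with most reads. The RPM ratio of Adcy6 crossed 1, from 1.14 in the main analysis to 0.986 on the scale with a median ratio of 1. Members higher numbered 1 in the main analysis, 2 at the laxer fold limit tried or with a minimum of 1 read, and 0 without overlapping loci, which leaves out Adcy5. Members lower numbered 4 in the main analysis, 6 at the laxer fold and 1 at 2-fold. They numbered 5 without the 20 genes with most reads and on the scale with a median ratio of 1. Without overlapping loci, which leaves out Pde4d, 3 of 6 members were lower. Members with a high allelic ratio numbered 1 per library and 0 after centring or with limits of 0.35 and 0.65, and in the adult library 0 without overlapping loci. Members with a low allelic ratio numbered 1 and 2 (adult, aged), and 0 with limits of 0.35 and 0.65. The other pathway genes, 23 higher and 7 lower, became 15 higher on the scale with a median ratio of 1, 12 and 3 at 2-fold, 13 lower at the laxer fold, and 14 and 4 without overlapping loci. Over all genes, 3571 higher and 1500 lower became 2370 and 2284 on the scale with a median ratio of 1, 5564 and 2544 at the laxer fold, 1467 and 655 at 2-fold, 1747 and 726 with a minimum of 100 reads, 7020 and 4005 with a minimum of 1 read, and 2121 and 804 without overlapping loci. Autosomal genes with a high allelic ratio, 3698 (adult) and 3692 (aged), became 1705 and 1739 with a minimum of 100 reads, 2190 and 2182 with limits of 0.35 and 0.65, and 2120 and 2150 without overlapping loci. Those with a low allelic ratio, 1500 and 1591, became 551 and 573, 884 and 951, and 870 and 918 under the same settings, and 2392 in the aged library after centring. Genes with a change of 0.1 or more, 3476, became 1040 with a minimum of 100 reads and 2010 without overlapping loci. Fewer genes entered under the higher minimum and without overlapping loci. On the scale of loci of 100 kb or more, added after seeing the data, ratios moved by a factor of 1.00.
Depth limits Adrb1, whose 8 and 19 reads leave its ratio and allelic ratio wide. With 1 heart per age, variation between animals is not measured, and age cannot be told apart from the heart, the sort or the library. The values cover nuclei with an active BL6 X chromosome and pool cell types.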

Other observations

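Loci of the annotation nested in Pde4d had allele shares unlike those of Pde4d itself. Gm32813 (chr13:109381471-109400142) had 478 reads at 9 weeks and 173 at 78 weeks, with an allelic ratio of 0.107 and 0.116, and Gm32703 (chr13:109425166-109441193) had 272 and 95 reads, with an allelic ratio of 0.0735 and 0.116, so that most reads at both loci were CAST. Pde4d had an allelic ratio of 0.528 and 0.566. The reads of either nested locus equalled less than 1% of the Pde4d reads, and their RPM ratios of 0.608 and 0.586 were close to that of Pde4d (0.571). Gm28523, which overlaps the start of Pde3a, had 74 and 72 reads, an RPM ratio of 1.63 and an allelic ratio of 0.419 and 0.194, whereas Gm10400 inside Pde3a had 188 and 68 reads, an RPM ratio of 0.607 and an allelic ratio of 0.473 and 0.368. LOC108168038, near the end of Pde4d, had 3 reads in each library.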
